A study of Mus musculus with 21 samples.

Results

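Transcripts of the wound bed were compared with those of the wound edge 2 days after wounding. The comparison used 6 of the 21 arrays of the series, namely the 3 arrays titled as wound bed of day 2 and the 3 titled as wound edge of day 2. All groups came from female C57Bl/KS-db/+ mice of 9 to 13 weeks, which are heterozygous for db, a leptin receptor mutation, so the controls carry it too. A square of back skin with a side of 1.5 cm had been cut out together with the panniculus carnosus, the thin muscle layer under the skin, and the wound had been covered with a transparent dressing. The bed is the tissue that lay within the excised square at day 2. The edge is the surrounding skin, taken to a width of 2 mm. The labels of the bed also mention skin of the day of the operation, and the arrays were taken as wound bed of day 2, as titled. The remaining 15 arrays held intact skin, shaved before it was taken, and bed and edge of days 6 and 15, with 3 arrays each. The labels give 3 animals per time point and do not state whether 1 animal gave both a bed and an edge sample.

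In the first days after an excision the bed of a skin wound holds a clot and a provisional matrix into which neutrophils and macrophages move, while new connective tissue has begun to form. The edge still has epidermis, hair follicles and dermis, and its keratinocytes start to migrate over the wound. Heparan sulfate, which gives the series its title, is a chain of sulfated sugars carried by proteins of the cell surface and the matrix, and it binds growth factors and chemokines. Its chains are modified by sulfotransferases and cut by heparanase.

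RNA was labelled with Cy3 and hybridised to arrays with 1687 probes of 8 spots each. Levels are given as log2 signal after background correction and quantile normalization, so that 1 unit is a doubling, and levels are compared between samples only, never between probes. A probe was taken as measured on an array where it was brighter than 95% of the blank and empty spots there. Of the 1687 probes, 974 were measured on at least 3 of the 21 arrays and were tested. Only 3 probes could be given a gene symbol, namely those for Hpse, Fbln1 and Ndst3. No probe could be matched to a marker of keratinocytes, fibroblasts, muscle, fat or blood cells, so the labelled tissues were not checked against markers. Probe sequences were not used here. In whole tissue, fewer cells of a type and less RNA per cell cannot be told apart.

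The 6 arrays differed in quality. On the 3 bed arrays 832, 756 and 882 probes were measured and the median spot was 1.76, 1.86 and 2.17 times its local background. On edge replicates 1 and 2 the numbers were 792 and 840 probes, with ratios of 1.59 and 1.78. Edge replicate 3 stood apart, with 544 measured probes and a ratio of 1.25. On that array 41.5% of the blank and empty spots outshone the median probe, against 3.05% to 12.9% on the other 5. Edge replicates 1 and 2 correlated with each other at r = 0.982 across the 974 tested probes, and edge replicate 3 correlated with them at 0.864 and 0.877. It correlated with bed replicates 1 and 2 at 0.855 each, almost as closely as with its own group. The bed arrays correlated with one another at 0.857 to 0.944, and bed with edge arrays at 0.744 to 0.855. Probes are not independent replicates, and these correlations are descriptions. The closest pair, edge replicates 1 and 2, still differed by a median of 1.90 spot errors, where arrays that do not differ would give 0.674, so each array was counted as 1 sample. The images had been scanned on 3 days. Edge replicates 1 and 2 were scanned on the first, bed replicate 1 and edge replicate 3 on the second, and bed replicates 2 and 3 on the third, so tissue and scan day can be told apart only through the pair of the second day, one of which is the dim edge array.

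Bed and edge differed at many transcripts at day 2, in both directions. Of the 974 tested probes, 87 (8.93%) differed at an adjusted p below 0.05 with limma. The signal was higher in the bed for 38 of them (3.9%) and lower for 49 (5.03%). Their sizes are given below, apart for probes measured on both sides and for those measured on one. Over all tested probes the median absolute difference was 0.45, and the median signed difference 0.06. The bed arrays did not overlap with the edge arrays for 85 of the 87, against 31.1% of all tested probes. The 87 were called on these same arrays, so the lack of overlap is no further evidence for them. At an unadjusted p below 0.05 there were 224 probes (23%). The median standard error of a difference was 0.41.

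The count depended on the arrays and the scale. Without edge replicate 2 the fit called 54 probes (21 higher, 33 lower), and without edge replicate 1 it called 25 higher and 34 lower. Without the dim edge replicate 3 it called 97 (40 higher, 57 lower), of which 70 were among the 87. All 87 kept their direction, but for the 85 whose bed and edge arrays did not overlap it could not turn. When scan day was added as a block 59 were called, 53 of them among the 87. On the second scan day alone all 87 went the same way as in the full comparison, but its arrays had taken part in the calls. With each array scaled to the 75th percentile of the 323 probes measured on all 21 arrays, the split was 25 higher and 60 lower, and the median over all tested probes moved from 0.06 to -0.11.

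**Figure D1:**
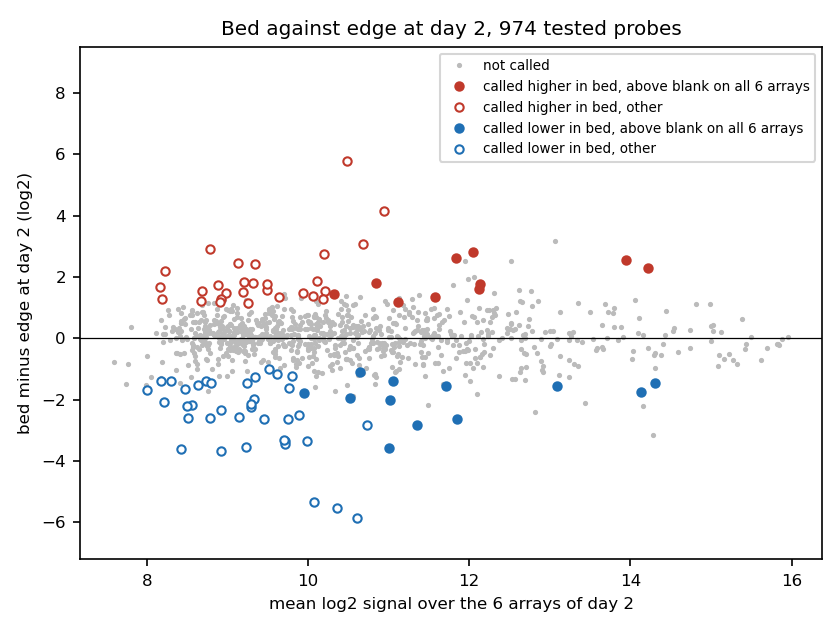
The difference between bed and edge at day 2 (log2, vertical) against the mean log2 signal over the 6 arrays (horizontal) for each of the 974 tested probes. Filled symbols are called probes measured on all 6 arrays (10 higher, 12 lower), open symbols are called probes not measured on at least 1 of them, and most of the largest differences are open symbols, whose size rests in part on signals that did not count as measured.

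Many of the differences were between tissue where a transcript was measured and tissue where it was not. Among the 38 higher probes, 19 were above the blank spots on all 3 bed arrays and on no edge array, 10 were measured on all 6 arrays, and 9 showed another pattern. Over all 974 tested probes, 39 were above the blank spots on all 3 bed arrays and on no edge array. Among the 49 lower probes, 11 were above the blank spots on all 3 edge arrays and on no bed array, and 12 were measured on all 6. A further 17 were measured on no bed array and on 2 edge arrays, and in all 17 the edge array without a measurement was the dim replicate 3. Over all 974 probes, 11 were measured on all 3 edge arrays and on no bed array, so each of these was among the 49, and 32 on 2 edge arrays and no bed array. Of all tested probes 50.6% were measured on all 6 arrays, against 26.3% of the called higher and 24.5% of the called lower ones.

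Where a probe was measured on no array of a group, its difference is given as a bound. For the bound, the brighter group's mean was set against a floor for the dimmer group. The floor of an array was the lowest signal that counted as measured on it, or the signal of the probe there if higher. Of the 38 higher probes, 21 were measured on no edge array, as were 137 of all 974. For 18 of these the bed was at least 1.025- to 17.2-fold higher than the edge, and for 7 the bound was over 2-fold. For the other 3 the bound was not above 1 and no fold is given. Of the 49 lower probes, 30 were measured on no bed array, as were 81 of all 974. For 28 of these the value computed in this way was 1.04- to 24.3-fold lower in the bed, over 2-fold for 19 and over 4-fold for 9. Of the 30, 11 were measured on all 3 edge arrays, 17 on 2 and 2 on 1. The edge mean took in all 3 edge arrays, so the value is a lower bound only for the 11. The lower probes thus held more of the values over 4-fold, 9 against 3, a count that was not tested. Among the 9, M200000623 and M200001364 were measured on only 2 edge arrays. The floor was also higher in the edge than in the bed, which makes the bounds of the higher probes smaller, so the 2 counts are not on the same scale.

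The probes measured on all 6 arrays give differences between signals that all stood above the blank spots. In this set the 10 higher probes had differences of 1.19 to 2.83, with a median of 1.79, and the 12 lower probes had -3.58 to -1.09, with a median of -1.77. The pair with the largest rise and the pair with the largest fall are described next, by their identifiers, as the files used here do not pair them with gene names.

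Probe M200000583 was the largest rise of this kind. Its log2 signal was 13.54, 14.21 and 12.63 in the bed and 10.27, 10.12 and 11.51 in the edge. All bed arrays lay above all edge arrays, and the dim edge replicate 3 was the highest of the edge. The median spot brightness before any correction was 16120, 28421 and 14117 in the bed against 1334, 943 and 2535 in the edge. The difference was 2.83 (SE 0.62, 7.1-fold, limma adjusted p = 0.0051). When scan day was added as a block it was 2.14 (SE 0.71, adjusted p = 0.0821) and no longer passed, and on the second scan day the bed array exceeded the edge array by 2.03. Intact skin, at 11.81 ± 0.92 (SD, n = 3), lay between the bed at 13.46 ± 0.79 and the edge at 10.63 ± 0.77. Neither the bed (difference 1.65, limma adjusted p = 0.104) nor the edge (-1.17, adjusted p = 0.541) differed from intact skin at the threshold.

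Probe M200000046 was the next largest rise. It read 13.50, 12.63 and 13.32 in the bed and 10.30, 10.51 and 10.79 in the edge. The groups were well apart, with the lowest bed array above the highest edge array. The difference was 2.62 (SE 0.47, 6.14-fold, limma adjusted p = 0.00127), and 3.15 (SE 0.53, adjusted p = 0.00159) when scan day was added as a block. Intact skin read 9.67, 9.59 and 10.32, with the array at 9.59 not above its blank spots, so here intact skin was close to the edge. Against intact skin the bed was higher by 3.29 (SE 0.47, limma adjusted p = 9.17e-05), and the edge differed by 0.67 (adjusted p = 0.721).

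Probe M200001262 was the largest fall among the probes measured on all 6 arrays. It read 9.16, 9.35 and 9.15 in the bed and 12.83, 13.01 and 12.56 in the edge. The 3 bed arrays were within 0.2 of each other (SD 0.11), and all lay far below the edge. The difference was -3.58 (SE 0.53, 12-fold, limma adjusted p = 0.000155), and -3.78 (SE 0.64, adjusted p = 0.00159) when scan day was added as a block. Intact skin read 14.14, 13.32 and 13.27, above both tissues of the wound. Against intact skin the bed was lower, with a difference of -4.35 (SE 0.53, limma adjusted p = 1.51e-05), and the edge differed by -0.77 (adjusted p = 0.713).

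Probe Mm.6904, which carries a UniGene cluster as its identifier, had the smallest adjusted p of these 4. It read 9.94, 9.72 and 10.16 in the bed and 12.56, 12.85 and 12.87 in the edge. Spots were 4862, 6088 and 5596 bright in the edge against 1689, 1615 and 2517 in the bed, so the groups were apart before any correction too. The difference was -2.82 (SE 0.36, 7.05-fold, limma adjusted p = 6.54e-05), and -2.90 (SE 0.45, adjusted p = 0.00159) when scan day was added as a block. The edge was close to intact skin, which read 12.97, 12.21 and 12.20 (edge minus intact 0.30, 95% interval -0.45 to 1.05). The bed was lower than intact skin, by -2.52 (SE 0.36, limma adjusted p = 9.17e-05).

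**Figure D2:**
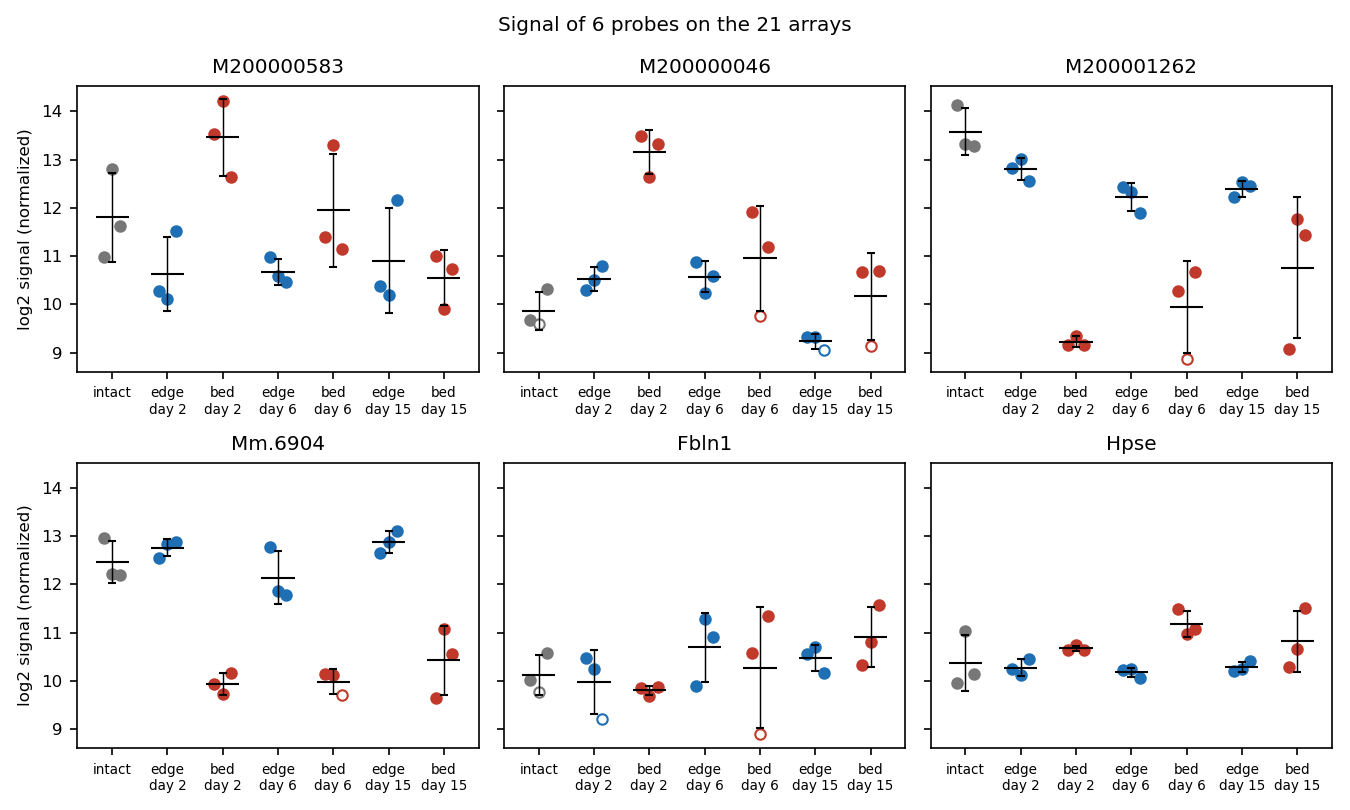
Log2 signal (vertical) of 6 probes on each of the 21 arrays by group (horizontal), with the mean and SD over 3 arrays as bars. Open symbols are arrays where the probe was not above the blank spots. At day 2 the bed (red) and edge (blue) arrays do not overlap for the upper 3 panels, for Mm.6904 or for Hpse, and overlap for Fbln1.

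Of the genes with a symbol, Hpse and Fbln1 were tested, and neither differed between bed and edge at day 2 at the threshold. Hpse encodes heparanase, the enzyme that cuts heparan sulfate chains. It read 10.64, 10.74 and 10.64 in the bed and 10.25, 10.11 and 10.46 in the edge. Each bed array was above each edge array, as was the case for 31.1% of tested probes in one direction or the other. The difference was 0.40 (SE 0.32, limma adjusted p = 0.500), with a 95% interval of -0.28 to 1.07. The interval holds no difference and also a doubling. When scan day was added as a block the difference was 0.16 (SE 0.41, adjusted p = 0.876). At day 6 the 3 Hpse signals were 11.49, 10.97 and 11.06 in the bed and 10.22, 10.25 and 10.06 in the edge. That difference of 0.999 (SE 0.32) passed the threshold (limma adjusted p = 0.0427). It no longer passed without any 1 of the 6 arrays of day 6 (adjusted p from 0.0528 to 0.114) or when scan day was added as a block (0.76, adjusted p = 0.422). At day 15 it was 0.53 (SE 0.32, adjusted p = 0.334), and the change from day 2 passed on neither day (limma adjusted p = 0.492 and 0.964). Intact skin had an Hpse signal of 10.37 ± 0.57 (SD, n = 3), and neither tissue differed from it at the threshold (bed minus intact 0.30, adjusted p = 0.656, and edge minus intact -0.10, adjusted p = 0.957, limma).

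Fbln1 encodes fibulin-1, a glycoprotein of the extracellular matrix. It read 9.84, 9.69 and 9.87 in the bed and 10.47, 10.25 and 9.22 in the edge, where replicate 3 was not above its blank spots. The groups overlapped because of that array. The difference was -0.18 (SE 0.51, limma adjusted p = 0.900, 95% interval -1.24 to 0.89), and its sign turned to 0.07 without edge replicate 1. Without the dim edge replicate 3 it was -0.56. Ndst3 encodes an N-deacetylase and N-sulfotransferase that modifies heparan sulfate chains during their synthesis. None of the 6 arrays had its probe above the blank spots. It was not tested and has no level here.

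Of the 75 probes with a public identifier, 43 were tested and 3 were called (1 higher, 2 lower), which is 6.98%. Of the 931 tested catalogue probes, 84 were called (9.02%). Calls were made at all levels of brightness, with 37 of the 325 dimmest tested probes (11.4%), 33 of the 324 in the middle (10.2%) and 17 of the 325 brightest (5.23%). Among the dimmest probes more calls were higher in the bed (21 against 16), and in the middle more were lower (22 against 11). No probe was saturated on all spots of either group.

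The arrays of intact skin were not part of the difference between bed and edge, and they place it. They did enter the normalization, the filter and the shared estimate of spread through which the 87 probes were called. For the 38 higher probes the median of the group means was 10.61 in the bed, 8.76 in the edge and 9.20 in intact skin. For the 49 lower probes it was 8.18 in the bed, 10.75 in the edge and 10.51 in intact skin. Intact skin lay nearer to the edge than to the bed for 28 of the 38 and for 34 of the 49 probes. The same count over all tested probes is not given here. Intact replicate 1 was scanned on the first day and replicates 2 and 3 on the second. The edge was scanned on those days too, while bed replicates 2 and 3 were scanned on the third. Likeness of tissue and a shared scan day can therefore not be told apart in these counts. It lay between bed and edge for 24 and 36 of them, beyond the edge for 12 and 12, and beyond the bed for 2 and 1. Among the lower probes 30 were measured on all 3 intact arrays and 8 on none, while among the higher probes 11 were measured on all 3 and 8 on none. Over all 974 tested probes, 522 were measured on all 3 intact arrays and 120 on none.

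The 87 probes were also set against intact skin in each tissue. In the bed at day 2, 83 of 974 probes differed from intact skin (8.52%), among them 17 of the 38, all higher in the bed (4.31% of all tested probes were), and 26 of the 49, all lower (4.21% of all). In the edge at day 2, 4 probes differed from intact skin (0.411%), of which 1 was among the 38, and lower than intact skin (0.103% of all tested probes were), and 2 among the 49, both higher (0.308% of all). The median difference from intact skin of the 38 was 1.33 in the bed and -0.43 in the edge, and that of the 49 was -1.51 in the bed and 0.42 in the edge. Both comparisons use the same intact arrays, and the bed and edge arrays are those on which the probes were chosen, so the direction and number of these calls are in part set by that choice, and counts and medians are descriptions. A limit is the intact group itself, in which replicate 2 was dim, with 541 measured probes. Intact skin also had no array on the third scan day, when bed replicates 2 and 3 were scanned.

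**Figure D3:**
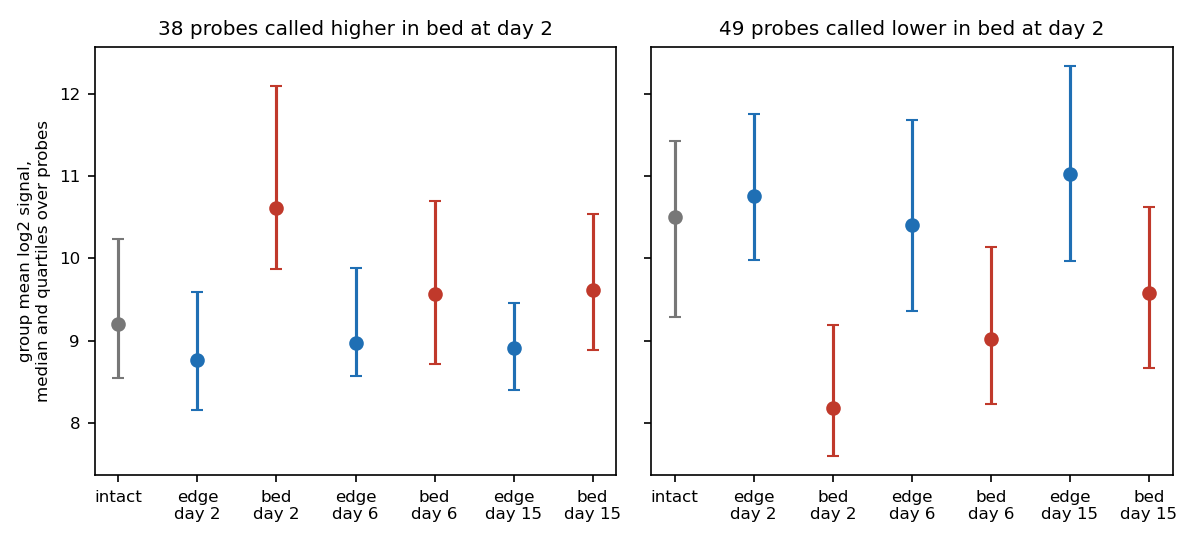
Group mean log2 signal (vertical) of the 38 probes called higher and the 49 called lower in the bed of day 2, for all 7 groups (horizontal). Points are medians and bars quartiles over probes, grey for intact skin, blue for edge and red for bed. The bed at day 2 is the extreme group in both panels, and the probes were chosen on it and on the edge of day 2.

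The bed and edge arrays of days 6 and 15 came from other samples and show how far the differences of day 2 were found again. The calls of all 3 days share 1 normalization, filter and estimate of spread, so they are not independent. A probe with a small spread is more readily called on each day. Among the 49 probes lower in the bed at day 2, 41 were lower at day 6, and 25 were called lower, against 8.32% of all tested probes. At day 15, 47 of the 49 were lower and 20 were called lower, against 4.31% of all. The median difference of the 49 was -1.34 at day 6 and -1.30 at day 15, where all tested probes had -0.04 and -0.01. The opposite call, higher in the bed, was made for 1 of the 49 at day 6 and for 1 at day 15.

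Of the 38 probes higher in the bed at day 2, 26 were higher in the bed at day 6 and 4 were called higher, against 8.01% of all tested probes. At day 15, 28 were higher and 9 were called higher, against 3.9% of all. Their median difference fell to 0.43 at day 6 and 0.65 at day 15, and none was called lower on either day. Whether the lower and the higher probes differ in this was not tested. As all were chosen on the values of day 2, their sizes at day 2 run high beside those of the later days.

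The scan days were laid out alike at all 3 days, so a difference found again on another day may share its scan day. When scan day was added as a block, 10 of the 49 were called lower at day 6, against 1.64% of all tested probes, and 8 at day 15, against 1.03%. Of the 38, 1 was called higher at day 6, against 0.205% of all, and 4 at day 15, against 1.03%. On the second scan day alone, with 1 bed and 1 edge array at each day, 42 of the 49 were lower at day 6 and 47 at day 15. Of the 38, 24 were higher at day 6 and 35 at day 15. All tested probes split on that scan day into 53.4% lower at day 6 and 48.5% at day 15. The bed array of day 15 on that scan day, replicate 1, stood apart. It correlated with the bed arrays of day 2 at r = 0.869 to 0.932 and with the other 2 arrays of its own group at 0.770 to 0.846. Without it, 41 of the 49 were lower at day 15 (16 called lower) and 21 of the 38 were higher (8 called higher). Of all tested probes 9.75% were then called, in both directions together. The shares of all tested probes by direction are not given here.

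**Figure D4:**
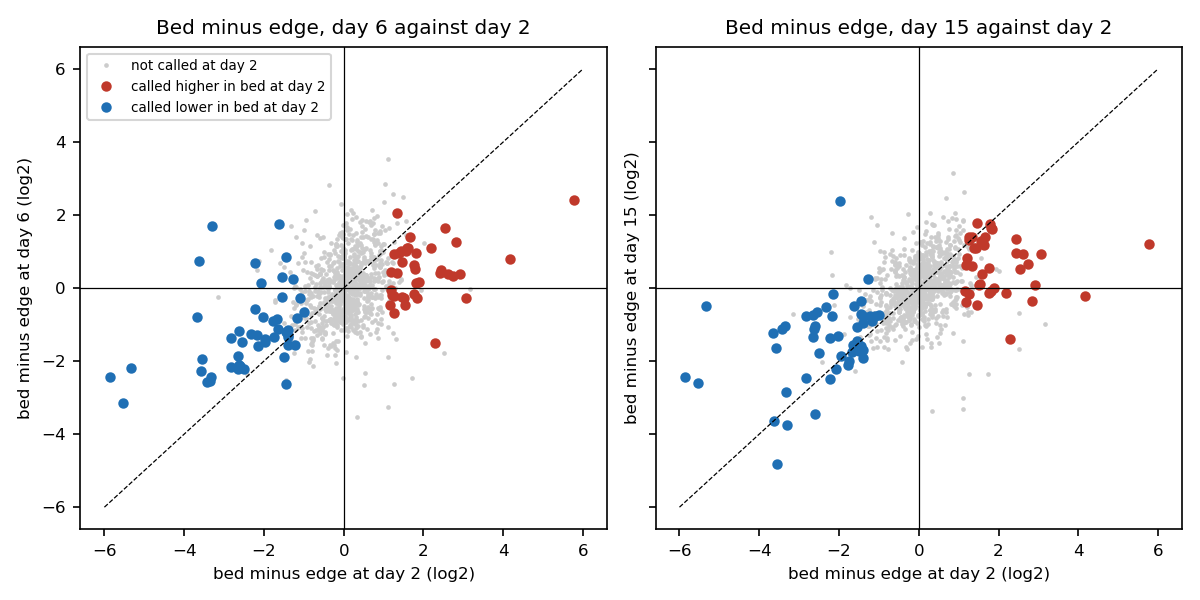
The difference between bed and edge (log2) at day 6 (left, vertical) and day 15 (right, vertical) against that at day 2 (horizontal) for the 974 tested probes. The dashed line marks equal differences. Most of the 49 probes lower in the bed at day 2 (blue) stay below 0 on both days, while 12 and 10 of the 38 higher ones (red) lie below 0 at days 6 and 15.

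Of the 4 probes described by their identifier, both that fell at day 2 were also lower in the bed later. Mm.6904 had a difference of -2.15 at day 6 (SE 0.36, limma adjusted p = 0.000807) and of -2.45 at day 15 (SE 0.36, adjusted p = 0.000408). M200001262 had -2.28 at day 6 (SE 0.53, adjusted p = 0.0102), and -1.64 at day 15 (SE 0.53, adjusted p = 0.0595), past the threshold only at day 6. The probes that rose at day 2 were not called later. M200000046 had 0.38 at day 6 (SE 0.47, limma adjusted p = 0.606) and 0.93 at day 15 (SE 0.47, adjusted p = 0.231). M200000583 had 1.27 at day 6 (SE 0.62, adjusted p = 0.159) and -0.36 at day 15 (SE 0.62, adjusted p = 0.767). The change from day 2 to a later day was itself tested for all 4 and passed for none, with adjusted p from 0.0997 for M200000046 at day 6 to 0.872 for Mm.6904 at day 15 (limma).

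Over all tested probes the difference between bed and edge changed from day 2 to day 6 for 15 probes (1.54%) and from day 2 to day 15 for 6 (0.616%) with limma. The 15 comprised 8 of the 87 probes called at day 2, of which 4 had been higher in the bed and had a negative change (1.03% of all tested probes had), and 4 had been lower and had a positive one (0.513% of all). The other 7 had not been called at day 2. Of the 6, 3 had been called at day 2, as had 8.93% of all tested probes. The difference of day 2 enters the change with its sign reversed. The number and signs of the changes among the 87 are thus in part set by how those probes were chosen. The counts of 15 and 6 both rested on single arrays. For day 6 the count was 7, 7 and 8 without bed replicates 1, 2 and 3 of day 2 and 7 without edge replicate 2, and for day 15 it was 10 without bed replicate 3, 3 without edge replicate 1 or 2, and 50 without bed replicate 1 of day 15. At an unadjusted p below 0.05 there were 148 and 104 probes.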

How the data were processed

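The deposited scanner files give the brightness of each spot as a linear intensity of at most 65535. Per the file headers, spots were quantified by image analysis (version 4.1, automatic segmentation) of a 532 nm scan. Labelling with Cy3 started from 500 ng of total RNA, amplified first, per the labels' protocols. As another value, the deposited files hold a flag of 0 to 3 per spot, which no source used here explains. The authors' deposited table of the series holds a scaled log score, which was rebuilt from the scanner output to within 0.00119 and used as an alternative.

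Intensities were background-corrected (normexp, offset 50, limma 3.58.1, R 4.3.3), averaged as log2 over the 8 spots of a probe (leaving out flag 1), and quantile normalized, which hides a shift common to most transcripts. A probe was tested where it was above the 95th percentile of the 328 blank and empty spots on at least 3 arrays (974 probes, 713 left out). All 21 arrays entered 1 linear model with 7 group means (14 residual degrees of freedom). P-values were two-sided, moderated by limma and adjusted by Benjamini-Hochberg over all tested probes. They measure the spread between these samples, which the labels do not tie to separate animals one by one. The fit was tested on simulated data.

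Probes were to be named where a table gave a symbol, and otherwise as the 2 largest rises and falls among called probes measured on all 6 arrays. Through RefSeq (GRCm38.p6) 3 of 1687 probes matched, of 75 with a public identifier (55 UniGene clusters). The lists of heparan sulfate enzymes (Hpse, Ndst3), of their core proteins (no probe), of fibulins (Fbln1) and of cell type markers (no probe) were therefore not tested. Comparison, lists and rules were chosen with earlier results of these data known. Each array was on a slide of its own. The number of arrays limits the precision.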

Additional observations from a re-analysis of the deposited data

Results flagged for a closer look

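A test of the change in the difference between bed and edge from one day to another passed for some probes. From day 2 to day 6 it passed for 15 of 974 tested probes and from day 2 to day 15 for 6. Probes M200000583, M200000046, M200001262 and Mm.6904 and the genes Hpse and Fbln1 were not among them. No group had more than 3 arrays, so single outlying samples within a group were not tested for.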

How the results depend on the processing

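The count of 87 probes stayed within 1.5 times in 18 of 21 alternatives (59 to 109). It was 16 (7 higher, 9 lower) among the 493 probes measured on all 6 arrays, and 373 (193 higher, 180 lower) with array weights, which on the 6 arrays ran from 0.306 for edge replicate 3 to 4.71 for edge replicate 1. Leaving out 1 of the 6 arrays gave 54 to 97 probes, 21 to 40 higher and 33 to 57 lower. The higher probes numbered 25 with plain background subtraction and 25 with the scale over probes measured on all arrays, and the lower ones 28 when measurement on 3 of the 6 arrays was asked for. The change from day 2 to day 6 was called for 8 probes with no filter and 73 with array weights, and for 7 to 18 without 1 array. That to day 15 was called for 37 with array weights, for 50 without bed replicate 1 of day 15 (chosen after seeing the data), and for 3 to 10 without 1 array of day 2. The cause was not tested. The deviations of bed and edge arrays with the same replicate number correlated at 0.079, -0.244 and -0.221. Those with unlike numbers correlated at -0.275 to 0.295. With 3 arrays a group, which also differ in brightness and scan day, this cannot decide whether 1 animal gave both samples. With a replicate block 70 probes were called, 69 of them among the 87 (29 higher, 41 lower), and the changes from day 2 were called for 3 probes at day 6 and 4 at day 15. The differences of M200000046, M200001262 and Mm.6904 kept direction and call in all 21 alternatives, and M200000583 in all but the scan day block. Hpse was called in none (0.16 to 0.49 on the log2 scale, which the deposited table does not share), and Fbln1 ran from -0.56 to 0.067, the sign turning without edge replicate 1. Signal near the background limits what can be said of the 481 tested probes not measured on all 6 arrays.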
